A study of Mus musculus with 6 samples.

Results

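The collagen genes were taken as the gene probes whose name on the array is Col, a number, a and a number, which gave 91 probes for 44 genes, of 37325 genes named on the array. They were split by the kind of fiber or sheet their proteins build into 11 fibrillar, 8 basement membrane and 25 other collagens. Gene expression had been measured on one-color Agilent arrays of tumor-loaded colon from 6 mice with colitis-associated colon cancer (CAC), with 1 array per mouse. The 3 arrays labelled Rgnanomedicine came from mice given RG@M-γ-CD, the inclusion complex of the kinase inhibitor regorafenib in mannose-modified γ-cyclodextrin. The other 3 came from mice given PBS. The treated mice received 30 μg of the complex per g body weight by mouth, which holds 10 μg of regorafenib per g, for 21 days, and all mice were then observed for 14 days. All 6 were male C57BL/6 mice, 6 to 8 weeks old on purchase, and both groups carried tumors induced with azoxymethane (AOM), a carcinogen given at 10 μg per g, and dextran sulfate sodium (DSS), which inflames the colon, at 2% in the drinking water. No array of γ-cyclodextrin alone, of free regorafenib or of healthy colon was analysed here, so the groups differ in the drug and its carrier together. The arrays are called RG 1 to RG 3 and PBS 1 to PBS 3 after their replicate numbers.

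Collagens are the main structural proteins outside cells. Each is a trimer of chains in which glycine recurs in a regular Gly-X-Y repeat, which lets the chains wind into a triple helix. Fibrillar collagens line up into the banded fibers of connective tissue, type IV chains form the sheet under epithelium and around vessels and muscle cells, and the remaining types decorate fibers, link sheets to fibers, build fine filaments or span the cell membrane. In the colon most of these chains are known to come from fibroblasts and smooth muscle cells, and some basement membrane chains come from epithelium and endothelium. Fewer cells of a type and less RNA per cell cannot be told apart in such bulk tissue.

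The glycine repeat can be read in 4 of the 91 probes, which are 60 bases long, and 3 of them are shown here because they let a reader see what the array measured. In each, the capitals mark the glycine codons of a reading frame that has no stop codon and reads glycine at every repeat. The Col15a1 probe is the one its values rest on. The Col6a3 and Col5a3 probes are further probes of their genes, and their coordinates span 993 and 730 bases, more than the probe's own length, as for a probe that joins exons. Coordinates are those of the scanner output in mm9: the Col15a1 probe lies at chr4:47283786-47283845 on the plus strand, the Col6a3 probe at chr1:92689602-92690594 and the Col5a3 probe at chr9:20590066-20590795, both on the minus strand.
Col15a1: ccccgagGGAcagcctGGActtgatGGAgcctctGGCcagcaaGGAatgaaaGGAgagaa
Col6a3: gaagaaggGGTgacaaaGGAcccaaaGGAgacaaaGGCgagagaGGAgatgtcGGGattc
Col5a3: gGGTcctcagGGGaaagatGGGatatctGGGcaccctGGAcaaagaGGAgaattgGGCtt

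RefSeq promoter windows (GRCm38.p6) were at hand for 35 of the 44 genes, in 38 windows. The 250 bases before the start site are shown for Col1a2 and Col3a1, chains of the type I and type III fibers that were both lower on RG 1 than on RG 2 and RG 3, and for Col4a5, which starts head to head with Col4a6. Capitals mark TATAAA (the TATA box core), CCAAT (the CCAAT box core) and GGGCGG (a GC box), searched on both strands. None of these motifs overlaps another.
Col1a2, chr6:4505368-4505617, plus strand: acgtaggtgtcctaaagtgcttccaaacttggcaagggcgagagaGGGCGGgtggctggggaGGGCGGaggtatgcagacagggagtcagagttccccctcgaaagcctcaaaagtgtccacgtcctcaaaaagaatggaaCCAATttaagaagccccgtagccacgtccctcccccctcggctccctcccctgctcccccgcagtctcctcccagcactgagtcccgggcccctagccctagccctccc
Col3a1, chr1:45311288-45311537, plus strand: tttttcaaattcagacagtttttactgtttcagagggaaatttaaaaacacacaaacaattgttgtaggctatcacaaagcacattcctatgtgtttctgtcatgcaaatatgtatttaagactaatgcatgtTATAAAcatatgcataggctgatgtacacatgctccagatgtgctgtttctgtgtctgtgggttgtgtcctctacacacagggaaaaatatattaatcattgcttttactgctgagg
Col4a5, chrX:141475169-141475418, plus strand: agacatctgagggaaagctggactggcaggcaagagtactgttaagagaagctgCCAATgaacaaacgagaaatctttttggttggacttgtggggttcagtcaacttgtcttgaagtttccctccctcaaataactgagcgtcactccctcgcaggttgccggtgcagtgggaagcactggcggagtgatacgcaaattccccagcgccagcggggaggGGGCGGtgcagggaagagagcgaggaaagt

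Over the whole windows of 300 bases, GGGCGG was found in 60.5% of the collagen windows and in 35.7% of all 32851 windows. CCAAT was found in 34.2% and 37.4%, and TATAAA in 13.2% and 13.6%. These shares describe letters in a window and were not tested.

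A gene was tested where some probe of it stood well above background on every array of either group, which held for 31 of the 44: 7 of the 11 fibrillar, 6 of the 8 basement membrane and 18 of the 25 other collagens. Of these, 30 had such a probe on all 6 arrays, and 7 genes had none on any array. Among the fibrillar chains not tested, Col11a1 and Col24a1 were well above background on no array, Col11a2 on 1 and Col27a1 on 4, spread over both groups. The type IV chains Col4a3 and Col4a4, known from the filtering membrane of the kidney, were well above background on no array. So were Col6a6, Col19a1 and Col28a1. Col10a1, the chain of growth cartilage, and Col25a1 reached 1 array each, Col8a2 reached 2 (RG 2 and RG 3 had its highest values) and Col26a1 reached 3.

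On each array, 49.6% to 55.2% of its 56605 gene probes stood well above background, no gene spot was saturated, and all arrays were on 1 slide and in 1 scan. Values are log2 intensities relative to the 75th percentile of the array's gene probes, so that 0 is this percentile, and a value of one probe cannot be set against that of another probe. Over the 19090 genes tested, arrays correlated with r between 0.941 and 0.992, lowest between RG 1 and RG 2. A clustering heat map in the study's supplement puts array numbers 6, 7 and 8 (RG 2, RG 3 and PBS 1 by the labels) on one side and 5, 10 and 11 (RG 1, PBS 2 and PBS 3) on the other. The sides are not called treated or untreated here. Groups were taken from the labels, and the difference of arrays 6, 7 and 8 minus arrays 5, 10 and 11 is given beside the labelled one.

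By the labels, no collagen passed the test. Of 31 tested, 0 had an adjusted p (limma, Benjamini-Hochberg) below 0.05, where 0% of all genes did, and the smallest adjusted p was 1. The methods' t-test also gave 0 after adjustment, and at the methods' threshold of a 2-fold change with an unadjusted p of at most 0.05 it gave 0 of 31 collagens and 45 of 19090 genes. At an unadjusted p below 0.05, 1 of 31 was counted, beside 2.19% of all genes, by limma. The t-test also counted 1 of 31, and 381 of all genes. The groups did not overlap for 1 of 31, beside 4.57% of all genes. Both are the same gene, Col16a1. With RG@M-γ-CD 16 collagens were higher and 15 lower, where 52.8% of all genes were lower. This split was 22 and 11 without RG 1, 9 and 22 without RG 3, and 20 and 11 with the row of the slide as a term. Of all genes, 54.8% were lower without RG 1, 55.8% without RG 3 and 36.5% with the row term. The row term leaves PBS 1 as the only PBS array compared, since PBS 2 and PBS 3 were in the other row. With all arrays the median difference was 0.07, beside -0.01 over all genes. With 3 mice a group, an exact two-sided permutation test of any single gene cannot go below 0.10. The study describes the mice of each group as independent animals.

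**Figure D1:**
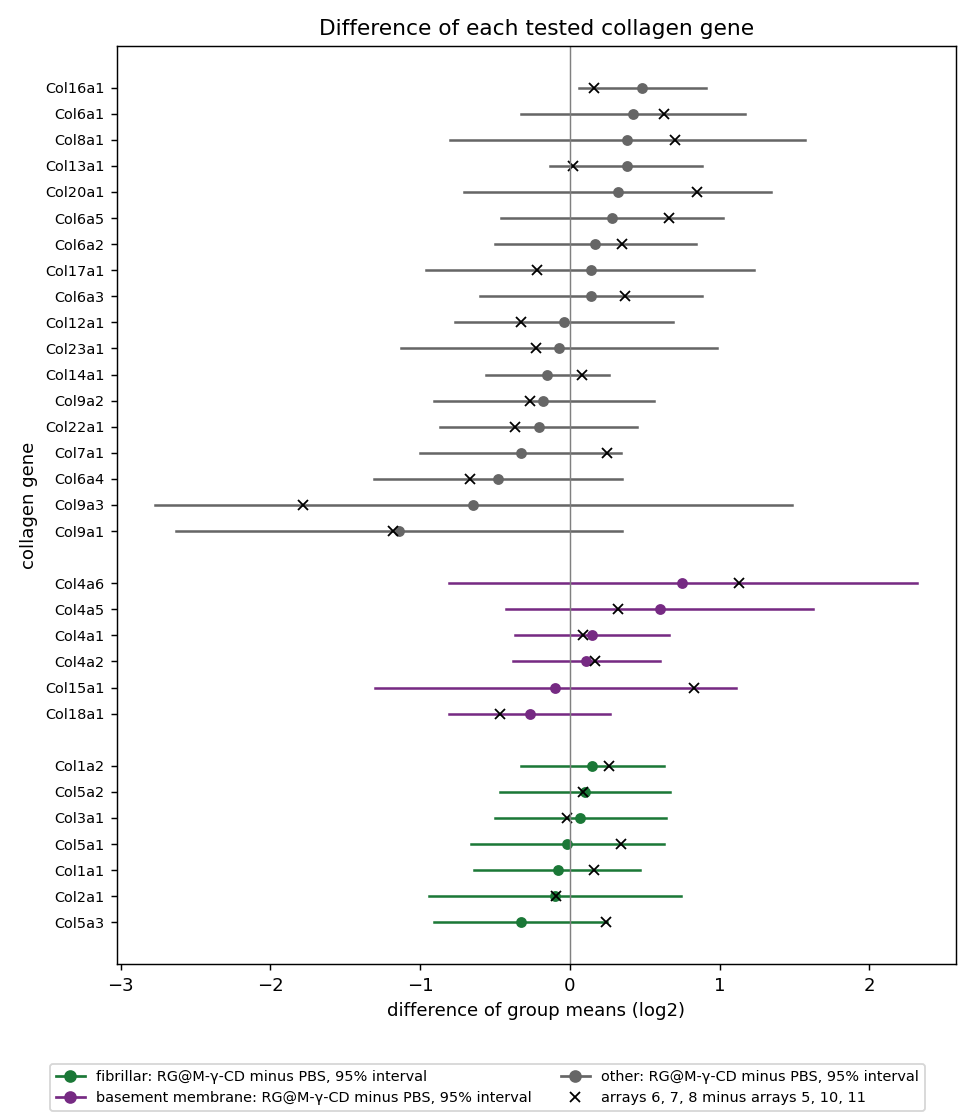
Difference of group means (log2, horizontal axis) of each of the 31 tested collagen genes (vertical axis), in green for fibrillar, purple for basement membrane and grey for other collagens. Points are RG@M-γ-CD minus PBS with 3 arrays a group, lines their 95% confidence intervals from limma, and crosses arrays 6, 7 and 8 minus arrays 5, 10 and 11. The interval of Col16a1, from 0.06 to 0.91, lies above 0, and the other 30 include 0.

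The fibrillar collagens had a median difference of -0.02 over 7 genes, with 3 higher, 4 lower and a range from -0.33 to 0.15. Col1a1, the chain that makes up most of type I collagen, read 2.95, 3.1 and 3.73 on RG 1 to RG 3 and 3.32, 3.3 and 3.41 on PBS 1 to PBS 3. The PBS arrays lay within the RG@M-γ-CD range, and the difference was -0.08 with an SE of 0.23. Its 3 probes above background gave -0.08, -0.08 and -0.05. Col1a2, the partner chain of type I, read 4.65, 5.07 and 5.28 with RG@M-γ-CD and 4.83, 4.84 and 4.89 with PBS. The 3 PBS arrays again lay inside the spread of the treated ones, and the difference was 0.15 (SE 0.2, 95% interval -0.33 to 0.63). Col3a1, the chain of the finer reticular fibers, read 4.47, 4.91 and 4.97 against 4.34, 4.95 and 4.86. RG 1 and PBS 1 were both low, and the difference was 0.07 (SE 0.24).

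Type V chains nucleate and limit the width of type I fibers. Col5a1 read 1.24, 2.06 and 2.14 with RG@M-γ-CD and 1.77, 1.75 and 1.97 with PBS. RG 1 was below and RG 2 and RG 3 above every PBS array, and the difference of the means was -0.02 (SE 0.27). Col5a3 had the smallest unadjusted p of the class, 0.217 by limma (adjusted p of 1): it read -0.11, 0.31 and 0.72 against 0.75, 0.7 and 0.47, a difference of -0.33 (SE 0.24). Col5a2, whose gene lies 24624 bases from Col3a1 on chromosome 1, differed by 0.1. Col2a1, the main collagen of cartilage, differed by -0.1, with RG 1 (-3.63) and PBS 1 (-3.62) below the other 4 arrays. Of 9 cartilage and bone markers, 3 could be tested, while Acan and Matn1, which mark cartilage, could not.

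The basement membrane collagens had a median difference of 0.13 over 6 genes, 4 higher and 2 lower, with a range from -0.27 to 0.75. Without RG 3 the median was -0.07, and without RG 1 it was 0.33. Col4a1 and Col4a2 encode the chains of the common type IV trimer and overlap by 85 bases at their starts on chromosome 8. Col4a1 read 2.66, 2.44 and 3.15 with RG@M-γ-CD and 2.58, 2.65 and 2.59 with PBS, a difference of 0.15 (SE 0.21). Col4a2 read 1.72, 1.72 and 2.29 against 1.81, 1.86 and 1.72, a difference of 0.11 (SE 0.2). For both genes RG 3 stood above the other 5 arrays, which lay between 2.44 and 2.66 for Col4a1 and between 1.72 and 1.86 for Col4a2.

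Col4a5 and Col4a6, whose chains are known from the sheet around smooth muscle, lie 1274 bases apart on the X chromosome. Col4a6 read -4.05, -1.45 and -1.97 with RG@M-γ-CD and -3.48, -3.28 and -2.98 with PBS. RG 1 was the lowest of the 6 arrays while RG 2 and RG 3 were the highest, and the difference of 0.75 had an SE of 0.65 and an interval from -0.81 to 2.32. It was 0.23 without RG 2, 1.53 without RG 1 and 0.39 with normexp background correction. Col4a5 read -2.21, -1.15 and -0.91 against -2.62, -1.94 and -1.5, a difference of 0.6 (SE 0.43), with RG 1 inside the PBS range and RG 2 and RG 3 above it.

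Col18a1 and Col15a1 carry sugar chains and end in domains that can be cut off as endostatin and a related fragment. Col18a1 had the lowest difference of the class, -0.27 (SE 0.22, interval -0.81 to 0.27). It read 3.8, 3.09 and 3.32 with RG@M-γ-CD and 3.5, 3.73 and 3.8 with PBS. RG 2 and RG 3 lay below every PBS array and RG 1 at the PBS maximum. Col15a1, by the probe printed above, read -3.99, -1.93 and -2.7 against -2.59, -2.74 and -2.99. Here RG 1 was the lowest and RG 2 the highest array, and the difference was -0.1 (SE 0.5). On arrays 6, 7 and 8 against 5, 10 and 11 the sides did not overlap for either gene, beside 25.5% of all genes. The differences were 0.83 for Col15a1 and -0.47 for Col18a1 (adjusted p of 0.309 and 0.297 by limma).

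The other collagens had a median difference of 0.05 over 18 genes, 9 higher and 9 lower, with the widest range of the classes, from -1.14 to 0.48. Col16a1, which sits on the surface of fibers and sheets, was the collagen whose groups did not overlap. It read 3.1, 3.46 and 3.19 with RG@M-γ-CD and 2.61, 2.74 and 2.95 with PBS. All treated arrays were above all PBS arrays, and the difference was 0.48 (1.4-fold, SE 0.18, unadjusted p of 0.0318 and adjusted p of 1 by limma). It rests on 1 probe, since the other 2 probes of the gene were well above background on no array, and it was 0.16 between the sides of the heat map.

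Type VI chains form beaded filaments around cells, and Col6a1, Col6a2 and Col6a3 make up the usual trimer. Col6a1 read 2.65, 3.6 and 3.78 with RG@M-γ-CD and 2.96, 3.02 and 2.78 with PBS, a difference of 0.42 (SE 0.31). RG 1 was below every PBS array and RG 2 and RG 3 were above. Col6a3 read 1.5, 2.16 and 2.69 against 1.84, 2.05 and 2.05, in the same order, with a difference of 0.14 (SE 0.31). Col6a2 differed by 0.17 and Col6a5, a chain that can stand in for Col6a3, by 0.28. Col6a4, another such chain, ran the other way. It read 1.39, 0.04 and 0.86 against 1.11, 1.23 and 1.39, a difference of -0.48 (SE 0.34).

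Among the fibril-associated chains, the 3 type IX genes had differences of -1.14 for Col9a1, -0.65 for Col9a3 and -0.18 for Col9a2. Without RG 2 these were -0.63, 0.31 and 0.13. Type IX collagen coats the fibers of cartilage. Col9a1 read -2.94, -5.13 and -4.26 with RG@M-γ-CD and -2.99, -3.7 and -2.21 with PBS (SE 0.62, unadjusted p of 0.111 and adjusted p of 1 by limma). It was well above background on 3 PBS arrays but on only 1 treated array, so it was tested through the group where it is high, and the size of its difference is uncertain. With normexp background correction it was -0.47. Col9a3 covered 3.4 on the log2 scale, the widest range of the 31 genes, from 0.25 on RG 1 to -3.15 on RG 2. The PBS arrays read -1.46, -0.52 and 0.17, and the SE of the difference was 0.88. Its second probe gave -0.11 in place of -0.65. With the row of the slide as a term, which compares with PBS 1 alone, the gene was at 0.21. Col20a1, with 0.32, was lowest on RG 1 and highest on RG 2, and was at -0.03 without RG 2. Col12a1, Col14a1 and Col22a1, which bridge fibers, differed by -0.04, -0.15 and -0.21.

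Col17a1 spans the membrane of basal epithelial cells in their anchoring junctions, and Col7a1 forms the anchoring fibrils below them. Col17a1 read -2.69, -3.01 and -1.59 with RG@M-γ-CD and -3.22, -2.03 and -2.44 with PBS, and the groups overlapped widely (difference 0.14, SE 0.46). Col7a1 read -0.65, -0.9 and -0.25 against 0.22, -0.48 and -0.54. PBS 1 was the highest array, and the difference was -0.33 (SE 0.28). With the row of the slide as a term it was -0.82. RG 1 to RG 3 and PBS 1 were in 1 row of the slide and PBS 2 and PBS 3 in the other. The difference with this term therefore rests on PBS 1 alone. The membrane-spanning Col13a1 differed by 0.38 and Col23a1 by -0.07. Col8a1, a short chain of vessel walls, differed by 0.38.

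**Figure D2:**
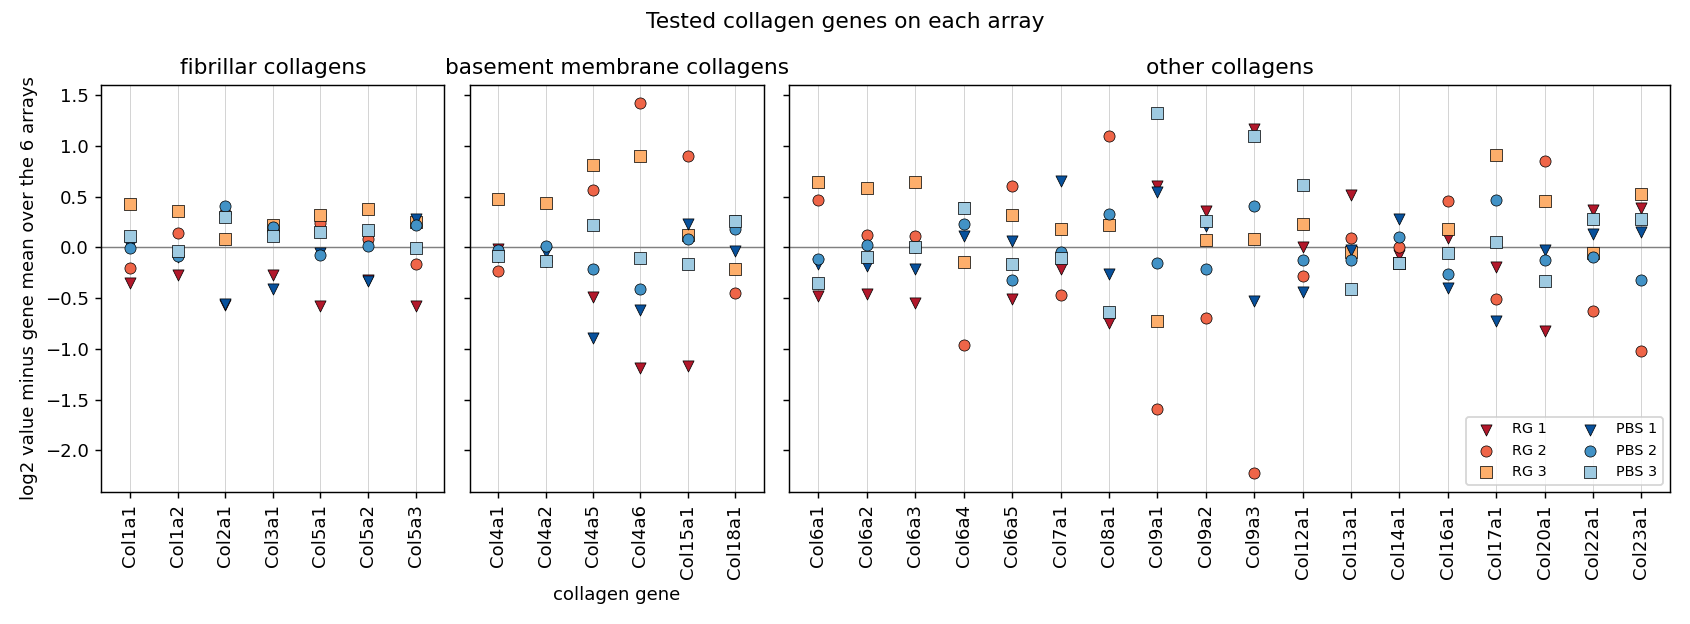
Values of the 31 tested collagen genes on each array, as the log2 value minus the gene's mean over the 6 arrays (vertical axis), with red and orange symbols for RG@M-γ-CD and blue for PBS. RG 1 (dark red triangles) is the lowest array for 13 genes and RG 3 (light orange squares) the highest for 13, and the spread is widest for Col9a3, with 3.4 between its arrays.

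The collagen values of the treated arrays lay further apart than those of the PBS arrays. The SD over RG 1 to RG 3 was larger than that over the PBS arrays for 26 of 31 collagens (83.9%), beside 66.2% of all genes, with medians of 0.5 and 0.2. RG 1 was below both RG 2 and RG 3 for 18 of 31 collagens (58.1%), beside 33.6% of all genes, and above both for 7 (22.6%), beside 46.1%. All 7 fibrillar collagens, 4 of 6 basement membrane collagens and 7 of 18 others were below. The mean of RG 2 and RG 3 minus RG 1 had a median of 0.55 for the fibrillar, 0.73 for the basement membrane and 0.03 for the other collagens, and of -0.1 over all genes.

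Single members ran from 2.34 for Col4a6, 1.67 for Col15a1, 1.48 for Col20a1 and 1.4 for Col8a1 down to -0.94 for Col6a4, -1.76 for Col9a1 and -2.24 for Col9a3. The usual type VI chains gave 1.04 for Col6a1, 0.82 for Col6a2 and 0.93 for Col6a3. Col1a1 and Col3a1 both gave 0.46 and Col1a2 gave 0.52. With 1 array on one side, these are descriptions and have no test.

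**Figure D3:**
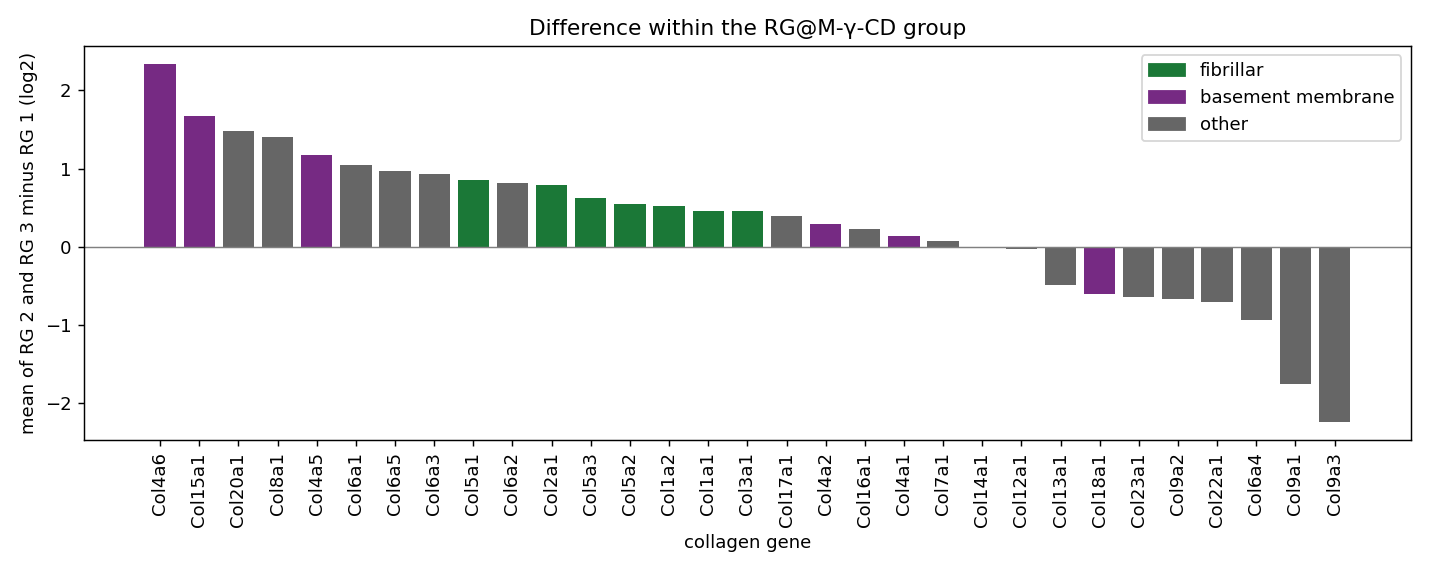
Mean of RG 2 and RG 3 minus RG 1 (log2, vertical axis) for each of the 31 tested collagen genes, 1 bar a gene, in green for fibrillar, purple for basement membrane and grey for other collagens. The 7 green bars lie between 0.46 and 0.86, and the bars run from 2.34 for Col4a6 to -2.24 for Col9a3. The bars of Col4a6, Col15a1 and Col20a1 rest on dim probes.

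Marker lists of several cell types also differed between RG 1 and the other treated arrays. For each list, the median of its genes' values relative to their own mean over the 6 arrays was taken. The 9 tested smooth muscle markers of 10 were at -1.47 on RG 1, 1.23 on RG 2 and 1.55 on RG 3, and between -0.59 and -0.35 on the PBS arrays. All 9 were lowest on RG 1 and 8 were highest on RG 3, and Acta2, the actin of smooth muscle, read 4.6, 7.16 and 7.33 against 5.63, 5.43 and 5.48. Over the same arrays the fibrillar collagens were at -0.35, 0.14 and 0.32 with RG@M-γ-CD and between -0.1 and 0.11 with PBS. The basement membrane collagens were at -0.31, 0.22 and 0.45, and between -0.1 and -0.01. The type VI chains were at -0.48, 0.13 and 0.59, and between -0.17 and 0. All 18 other collagens, type VI included, were at -0.04, -0.14 and 0.2, and between -0.1 and -0.02, so RG 2 was their lowest array.

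The 10 fibroblast markers were at -0.9, 1.09 and 0.05 with RG@M-γ-CD and between -0.36 and 0.16 with PBS. The 7 tested markers of enteric glia and neurons of 8 (Gfap could not be tested) were at -1.4, 1.29 and 1.12 and between -0.34 and -0.1. The 8 endothelium markers were at -0.03, 0.61 and 0.04 and between -0.54 and 0.14. The 9 tested immune markers of 10 were at 0.13, -0.45 and -0.37 and between 0.17 and 0.48. By the labels all 9 were lower (median -0.53), beside 52.8% of all genes, while all 9 smooth muscle (median 0.95), all 8 endothelium (0.37) and all 7 enteric markers (0.56) were higher. The 12 colon epithelium markers were all tested, and their median was between -0.32 and 0.29 on every array. Single ones ranged further: Aqp8, a water channel of mature colon cells, read -0.12 on RG 1 and 4.57 and 4.38 on RG 2 and RG 3, and Slc26a3, a chloride exchanger of the same cells, read -2.36 against 3.09 and 2.01. Of 8 skeletal muscle markers 4 were tested, at -0.13, 0.09 and 0.73 with RG@M-γ-CD and between -0.24 and -0.08 with PBS. Of 9 squamous epithelium markers 5 were tested, with a median difference of -0.52, and Krt5 and Ivl could not be. The part of these cells in the collagen values was not tested.

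**Figure D4:**
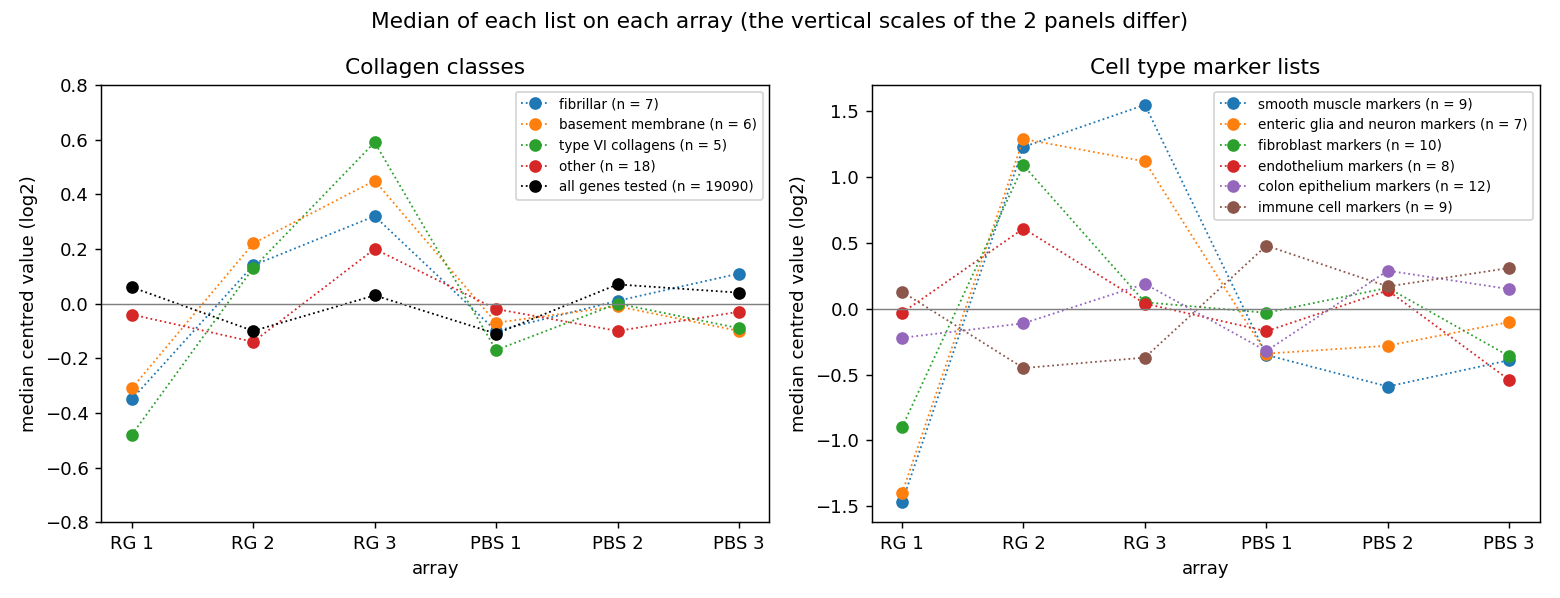
Median over each list of the log2 value minus the gene's mean over the 6 arrays (vertical axes, which differ in scale), on each array (horizontal axis), for collagen classes (left) and marker lists (right). Dotted lines only join the points of a list. RG 1 has the lowest fibrillar, basement membrane and type VI medians and RG 3 the highest, while smooth muscle markers are at -1.47 on RG 1 and 1.55 on RG 3.

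Leaving out RG 1 gave the highest count of collagens at an unadjusted p below 0.05 of the 6 arrays left out in turn. Without it, 33 collagens were tested, 22 were higher and 11 lower, where 54.8% of all genes were lower. Of the 33, 0 had an adjusted p below 0.05, beside 1.04% of all genes (202 of 19466). At an unadjusted p below 0.05, 10 of 33 collagens were counted, beside 12.5% of all genes. Of these, 7 were higher (7.05% of all genes) and 3 lower (5.42%). The higher ones were Col4a5, Col4a6, Col6a1, Col6a5, Col8a2, Col16a1 and Col20a1, and the lower ones Col6a4, Col9a1 and Col18a1. Col8a2 was tested here only because RG 2 and RG 3, where it is high, then make up the treated group, so its place follows from the filter. Over the 31 collagens tested by the labels, 9 were counted, 6 of them higher. Col9a1, which is among these 9, passed the filter only through the PBS arrays, where it is high. The smallest adjusted p was 0.0606 by limma, for Col4a6, with a difference of 1.53 (SE 0.25). Col6a1 differed by 0.77 (SE 0.18, adjusted p of 0.13 by limma). No fibrillar collagen was among the 10.

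Between the sides of the heat map, 32 collagens were tested, and 0 had an adjusted p below 0.05, beside 0.0259% of all genes, with 0.297 the smallest by limma. At an unadjusted p below 0.05, 6 of 32 were counted, beside 16.5% of all genes: 4 were higher on arrays 6, 7 and 8 (7.76% of all genes) and 2 lower (8.79%). The higher ones were Col6a1, Col6a5, Col20a1 and Col27a1, and the lower ones Col9a3 and Col18a1. Col27a1 was tested here only through arrays 6, 7 and 8, where it is high, and over the other 31 collagens 5 were counted, 3 of them higher. The sides did not overlap for 7 of 32, beside 25.5% of all genes, 4 of them higher (7.07%) and 3 lower (18.4%), and for 6 without Col27a1. The median difference was 0.2 for the 8 fibrillar (0.16 without Col27a1), 0.25 for the 6 basement membrane and 0.05 for the 18 other collagens, and -0.12 over all genes. Col9a3 had the widest difference of the collagens, -1.78 (SE 0.59).

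Probes of one gene did not always give one direction. Of 8 collagens with several probes above background, 4 had all of them on one side of 0 and 4 had probes on both sides. For Col3a1 the probe used gave 0.07, and dimmer probes gave -0.13 and 0.16. For Col1a2, where the probe used gave 0.15, the dimmer ones gave 0.31 and 0.14. One of them read -3.78, -1.46 and -3.14 with RG@M-γ-CD and -2.36, -3.49 and -3.46 with PBS, so its arrays spread more than those of the probe used. For Col6a3, the dimmer probe printed above gave 0.01, and its lowest array was again RG 1 (-3.46) and its highest RG 2 (-2.05). The Col5a3 probe printed above was well above background on 1 array.

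Genes that make, process and bind collagen gave no adjusted p below 0.05 either. Of 13 tested genes for hydroxylation and glycosylation of the new chains, 6 were higher and 7 lower (median -0.01), and none had an unadjusted p below 0.05. P3h2, a prolyl hydroxylase that acts on type IV chains, had the smallest, with 0.109 (adjusted p of 1 by limma): it read -2.81, -1.51 and -1.34 with RG@M-γ-CD and -2.69, -2.45 and -2.72 with PBS, so RG 1 was the lowest of 6 and RG 2 and RG 3 the highest, as for Col4a6. Of 10 genes for folding and export, 7 were higher and 3 lower (median 0.09), with 0.27 for Serpinh1, the collagen chaperone. Of 5 genes for cutting off the end domains, 3 were higher (median 0.02), with 0.18 for Pcolce, which speeds that cut. Of 4 crosslinking genes, 1 was higher (median -0.1), with -0.37 for Tgm2, a transglutaminase.

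Of 9 collagen receptors, 5 were higher and 4 lower (median 0.19), and 1 had an unadjusted p below 0.05, which 2.19% of all genes had. This was Itga2, the chain of the epithelial and platelet collagen integrin. It read -2.29, -2.87 and -2.35 with RG@M-γ-CD and -2.13, -1.97 and -1.49 with PBS, so all treated arrays were below all PBS arrays, and the difference was -0.64 (SE 0.25, unadjusted p of 0.0409 and adjusted p of 1 by limma). Of 7 fibril-binding proteoglycans, 6 were higher (median 0.5), with 0.89 for Aspn. RG 1 was below both other treated arrays for 6 of these 7 genes, beside 33.6% of all genes. Lum, which spaces the fibers, read -0.4, 2.34 and 2.08 against 0.41, 0.78 and 0.22.

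Of 14 laminin, nidogen and proteoglycan genes of the basement membrane, 6 were higher and 8 lower (median -0.04). RG 1 was above both RG 2 and RG 3 for 9 of them, beside 46.1% of all genes. It was below both for 4 of the 6 basement membrane collagens, beside 33.6% of all genes. Both counts rest on few genes, and their contrast was not tested. Of 16 genes of TGF-β signaling and its matrix targets, a pathway known to raise collagen expression, 7 were higher and 9 lower (median -0.03). Ltbp2, which is found with matrix microfibrils, had the smallest unadjusted p, 0.0757 (adjusted p of 1 by limma), with a difference of -0.66 (SE 0.31).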

How the data were processed

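Each array file holds the processed intensity of every spot, which the authors deposited as made by Agilent Feature Extraction 10.7.1.1: background-subtracted and detrended within the array, with no scaling between arrays. The log2 values of the value table deposited by the authors follow these intensities (r of 0.9991 or more) and have a single common median of 4.841; their normalization method is not given in the sources used here, and they served as an alternative.

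R 4.3.3 was used, with data.table version 1.17.8 for reading. Spots of controls and spots flagged as outliers were left out, spots of a probe averaged as log2, and the array's 75th percentile of gene probes subtracted. Names came through accessions from RefSeq (67 of 91 collagen probes) or stayed as in the file. A probe was well above background where at least 0.5 of its spots were flagged so. Probes so flagged on all arrays of a group were tested, the brightest for each gene, with limma 3.58.1 and Benjamini-Hochberg adjustment over all genes at 0.05. No collagen lacked a value on an array. The number of arrays limits the precision. Members, classes and gene lists were chosen with earlier results of these data known. Named genes are 12 preset chains and the 2 with the smallest p in each class; others were named for detection, sequence, extremes or probes that disagree, or to complete a count, after their values were seen. Of each pathway list the gene with the smallest p is named, except that for 1 list it is not reported here, and further examples were likewise chosen after their values were seen. The fit was first tested on simulated arrays of known differences. Alternatives were another scaling (quantile), background correction (normexp, offset 50), the value table, filters, probe averaging, outliers kept, a replicate block, the t-test named in the methods, slide row, the heat map sides and leaving out each array.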

Additional observations from a re-analysis of the deposited data

How the results depend on the processing

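No alternative gave a collagen an adjusted p below 0.05 by limma or the t-test. At an unadjusted p below 0.05 the count of 1 became 2 with normexp (1.69% of all genes), 0 without a filter on dim probes (2.09%) and 6 between the heat map sides (16.5%). The gene added with normexp was Col9a1, which passed the filter only through the PBS arrays, where it is high. Col9a1 was also the collagen that normexp added to the count without overlap given below. Leaving out 1 array gave 0 to 10, beside 1.25% to 12.5% of all genes, with 10 and 12.5% both without RG 1. Slide row as a term and row 1 alone both compare the treated arrays with PBS 1 alone. Within row 1, PBS 1 was assumed to vary like the treated arrays. The counts of these 2 settings at this p are not given. Collagens without overlap went from 1 (4.57% of all genes) to 2 with normexp (4.61%), 7 between the heat map sides (25.5%) and 11 within row 1 (38.7%). Leaving out 1 array gave 1 to 14, beside 7.52% to 25.9% of all genes, with 14 and 25.9% both without RG 1. The median of the other collagens, 0.05, was 0.2 with slide row as a term and 0.18 within row 1, and ran from -0.15 to 0.21 leaving out 1 array. Over all genes the median, -0.01, was 0.1 with slide row as a term and 0.07 within row 1. It ran from -0.06 to 0.05 leaving out 1 array. The fibrillar median ran from -0.16 to 0.25 and the basement membrane median from -0.07 to 0.33.

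Among the 16 genes named by the preset rule, signs turned for Col5a1 with slide row as a term (0.04) and within row 1 (0.04), and between the heat map sides for Col15a1 (0.83), Col17a1 (-0.22), Col1a1 (0.16), Col3a1 (-0.02), Col5a1 (0.34), Col5a3 (0.24) and Col7a1 (0.25). Leaving out 1 array, ranges crossed 0 for Col15a1 (-0.57 to 0.46), Col17a1 (-0.29 to 0.42), Col1a1 (-0.32 to 0.07), Col3a1 (-0.12 to 0.22), Col4a1 (-0.05 to 0.3), Col4a2 (-0.08 to 0.21), Col5a1 (-0.18 to 0.27) and Col6a3 (-0.15 to 0.45). The cause was not tested. The other 267 recomputed values of these 16 genes kept their sign or were 0. Over all 31 collagens, signs turned for 4 with slide row as a term (Col2a1, Col9a3 and Col12a1 beside Col5a1), 8 between the heat map sides, 1 with the mean of probes and 1 to 7 leaving out 1 array.

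Deviations of same-numbered arrays from their group means correlated at -0.25, -0.23 and 0.14, and those of unlike-numbered arrays at -0.33 to 0.41. With 3 arrays a group these values cannot decide whether the numbers pair mice. With a replicate block 464 genes in place of 419 had an unadjusted p below 0.05, and of the collagens 1, 0 of them after adjustment. This was Col4a5 (unadjusted p of 0.0294), while Col16a1 was at 0.064, both with an adjusted p of 1 by limma.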
